A study of Mus musculus with 2 samples.

Results

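This section follows 10 heat shock protein and chaperone genes (Hspa1a, Hspa1b, Hspa8, Hspa5, Hsph1, Dnajb1, Hsp90aa1, Hspd1, Hspe1 and Hspb1), taken as a list of gene names, of the 22337 gene symbols measured in single cells of mouse heart transplants. The cells came from 6 Bm12 donor hearts collected on postoperative day 14. Bm12 mice carry an altered MHC class II molecule that B6 CD4+ T cells recognize, and every heart of both groups came from such a donor and was placed heterotopically in a C57BL/6 (B6) recipient. The 3 WT hearts (1 to 3) had intact Il33, and the 3 IL33 KO hearts (4 to 6) came from Bm12 donors backcrossed to lack Il33 (Il33-/-) in every donor cell, so the recipients' own cells kept the gene. Donors and recipients were male.

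All 6 hearts were tagged with hashtag antibodies and loaded as 1 droplet library, which holds 4441 cells in 14 types annotated by the authors. The hearts gave 230 to 1666 cells and 908138 to 7012961 unique molecular identifiers (UMIs, each counting 1 captured RNA molecule), with a median of 3291 to 4457.5 UMIs per cell. The heart is the replicate throughout (n = 3 per group), so p-values measure the spread between these hearts. Levels are given as CPM (UMIs of a gene per 1e6 UMIs of the cell), as the mean of each heart's cells of a type.

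Chaperones bind unfolded or newly made proteins and help them fold. The HSP70 proteins do so with J-domain partners such as Dnajb1, which start the HSP70 ATP cycle, and with nucleotide exchange factors such as Hsph1, which end it. Heat and oxidative damage raise a stress-inducible set through heat shock factor 1, while unfolded protein in the endoplasmic reticulum raises Hspa5 through a separate pathway.

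Some regulatory sequence of the inducible members is shown first, because it separates those with heat shock elements from Hspa5. RefSeq start sites on build GRCm38.p6 were given for 8 of the 10 members. Windows from 250 bases before to 50 after each start were searched on both strands for the inverted repeats GAANNTTC and TTCNNGAA (the core of a heat shock element, 2 forms that can overlap), for CCAAT, for the ER stress response element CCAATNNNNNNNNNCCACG, which includes a CCAAT, and for TATAAA. A window of 6 members (Hspa1a, Hspa1b, Hsph1, Hspd1, Hspe1 and Hspb1) held at least 1 of the heat shock forms, and 15.1% of all 32851 promoter windows of the same length did. The ER stress response element was in 0.119% of all windows and, among the members, in that of Hspa5. CCAAT was in 37.4% of all windows, and TATAAA in 13.6% and in no window of a member. The windows of Dnajb1 held neither a heat shock form nor the ER element. A match describes letters and shows no binding. The 150 bases before the start are printed 5′ to 3′ on the gene's own strand, with the matches in capitals.
Hspa1a, chr17:34972157-34972306, minus strand: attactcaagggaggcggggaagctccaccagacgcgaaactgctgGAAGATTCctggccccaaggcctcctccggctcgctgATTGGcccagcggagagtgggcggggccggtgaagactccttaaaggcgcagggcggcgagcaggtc
Hspa1b, chr17:34959239-34959388, minus strand: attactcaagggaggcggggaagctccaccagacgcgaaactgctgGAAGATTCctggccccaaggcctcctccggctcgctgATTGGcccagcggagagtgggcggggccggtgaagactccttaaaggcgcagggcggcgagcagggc
Hspb1, chr5:135887769-135887918, plus strand: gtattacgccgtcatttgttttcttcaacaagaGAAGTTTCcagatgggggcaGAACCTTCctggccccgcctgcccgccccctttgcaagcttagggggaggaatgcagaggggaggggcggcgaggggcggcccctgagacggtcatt
Hspa5, chr2:34771940-34772089, plus strand: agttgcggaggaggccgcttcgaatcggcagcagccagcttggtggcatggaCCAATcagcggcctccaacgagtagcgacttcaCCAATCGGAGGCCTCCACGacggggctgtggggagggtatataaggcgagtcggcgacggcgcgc

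Hspa1a and Hspa1b, the stress-inducible cytosolic HSP70 genes, are single-exon genes on the minus strand at chr17:34969190-34972156 and chr17:34956436-34959238 (GENCODE, GRCm38), with 9951 bases between them. Their printed stretches differ at 1 of 150 bases, and the GAAGATTC element starts at position -104 in both. Of all 90-base windows of the transcripts, 49.3% of Hspa1a and 52.3% of Hspa1b were identical in the other gene, so reads from there could not be assigned to 1 of them. In the last 500 bases, near which a 3′ library reads, 0% of windows were shared. The values of each gene are given, and cells are also classed by their sum. Hspd1 (chr1:55077835-55088243, minus strand) and Hspe1 (chr1:55088132-55091307, plus strand) encode the mitochondrial chaperonin and its lid, lie head to head and share 112 bases. A run of 3 overlapping heat shock forms at chr1:55088059-55088076 lies inside Hspd1 and before the start of Hspe1, read from the Hspe1 strand as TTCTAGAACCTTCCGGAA.

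Among the 14 types, the stress-inducible HSP70 genes were at their highest level in cells annotated as fibroblasts. Hspa1b reached 369 ± 165 CPM there (SD, n = 6 hearts) and was above the next type in 6 of 6 hearts, and it was lowest in monocytes, at 6.91 CPM. Hspa1a reached 228 ± 110 CPM in fibroblasts and was lowest in NKT cells, at 15.9 CPM. The types were annotated from the expression of these same cells, so orders of types are descriptions without a test. For Hspa1a none of the 13 steps between neighbouring types in the order exceeded the larger SD of the pair, and for Hspa1b 2 did.

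Hspa8, the constitutive cytosolic HSP70, was present in every type. Its level ran from 574 ± 146 CPM in B cells to 1602 ± 84.0 CPM in fibroblasts, a 2.79-fold range, and macrophages followed fibroblasts at 1511 ± 566 CPM. The fibroblast values were close together in all hearts, at 1635, 1515 and 1682 CPM in WT 1, 2 and 3 and 1619, 1679.5 and 1484 CPM in IL33 KO 4, 5 and 6. Hsp90aa1, the inducible cytosolic HSP90, had a similarly narrow range, from 504 ± 92.4 CPM in monocytes to 1172 ± 128.2 CPM in fibroblasts. Monocytes were below the next type, NK cells, in 6 of 6 hearts. Of 13 neighbouring pairs of types, 11 for Hspa8 and 12 for Hsp90aa1 lay within the larger SD of the pair.

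The cochaperones ranged widely between types. Hsph1 (HSP110) ran from 15.2 CPM in monocytes to 106 ± 54.02 CPM in fibroblasts. Dnajb1 (HSP40) ran from 34.9 CPM in monocytes to 336 ± 259 CPM in fibroblasts, where IL33 KO 5, with 4 cells, held 854 CPM and the other 5 hearts held 164 to 320.1 CPM. Hspa5 (BiP), the HSP70 of the endoplasmic reticulum, was at 2465 ± 482 CPM in fibroblasts and 1712 ± 265 CPM in macrophages, and fibroblasts stood above macrophages in 6 of 6 hearts. Macrophages were above the next type, unconventional T cells, in 3 of 6 hearts, a difference within the larger SD of the pair. Naive T cells held 503 ± 38.8 CPM of Hspa5 and B cells 657 ± 96.2 CPM. The mean over the 4 myeloid types was 1405 ± 194 CPM and that over the 9 lymphoid types 965 ± 82.1 CPM.

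The mitochondrial pair had another order of types than the cytosolic members, with NKT cells on top for both genes. Hspd1 (HSP60) was at 387 ± 69.8 CPM in NKT cells and lowest in monocytes at 97.1 CPM. Hspe1 (HSP10) was at 321 ± 62.7 CPM in NKT cells and lowest in Mo-DCs at 114 CPM. Averaged by class, Hspd1 held 255 ± 23.1 CPM in lymphoid and 121 ± 20.3 CPM in myeloid types, and Hspe1 197 ± 28.5 and 166 ± 36.0 CPM. Over the 14 types the levels of Hspd1 and Hspe1 (log2 of CPM + 10) correlated with r = 0.64, and those of Hspa1a and Hspa1b with r = 0.79. These are descriptions over types that share 1 library and the same hearts.

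Hspb1, a small heat shock protein that holds unfolded proteins and binds actin filaments, had the widest range of the members. It was at 399 ± 184 CPM in fibroblasts, 31.2 ± 9.31 CPM in Tregs and 1.94 CPM in unconventional T cells, and fibroblasts were above Tregs in 6 of 6 hearts. After every cell was thinned to 1500 UMIs, 115 of 375 fibroblasts (30.7%) held an Hspb1 UMI. The same share was 14 of 263 (5.32%) in Tregs, 1.504% in Tcm and 1.44% in NKT cells. It was 0 of 83 in unconventional T cells, which allows a share of up to 3.61%. Intervals and limits of this kind cover counting error only.

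**Figure D1:**
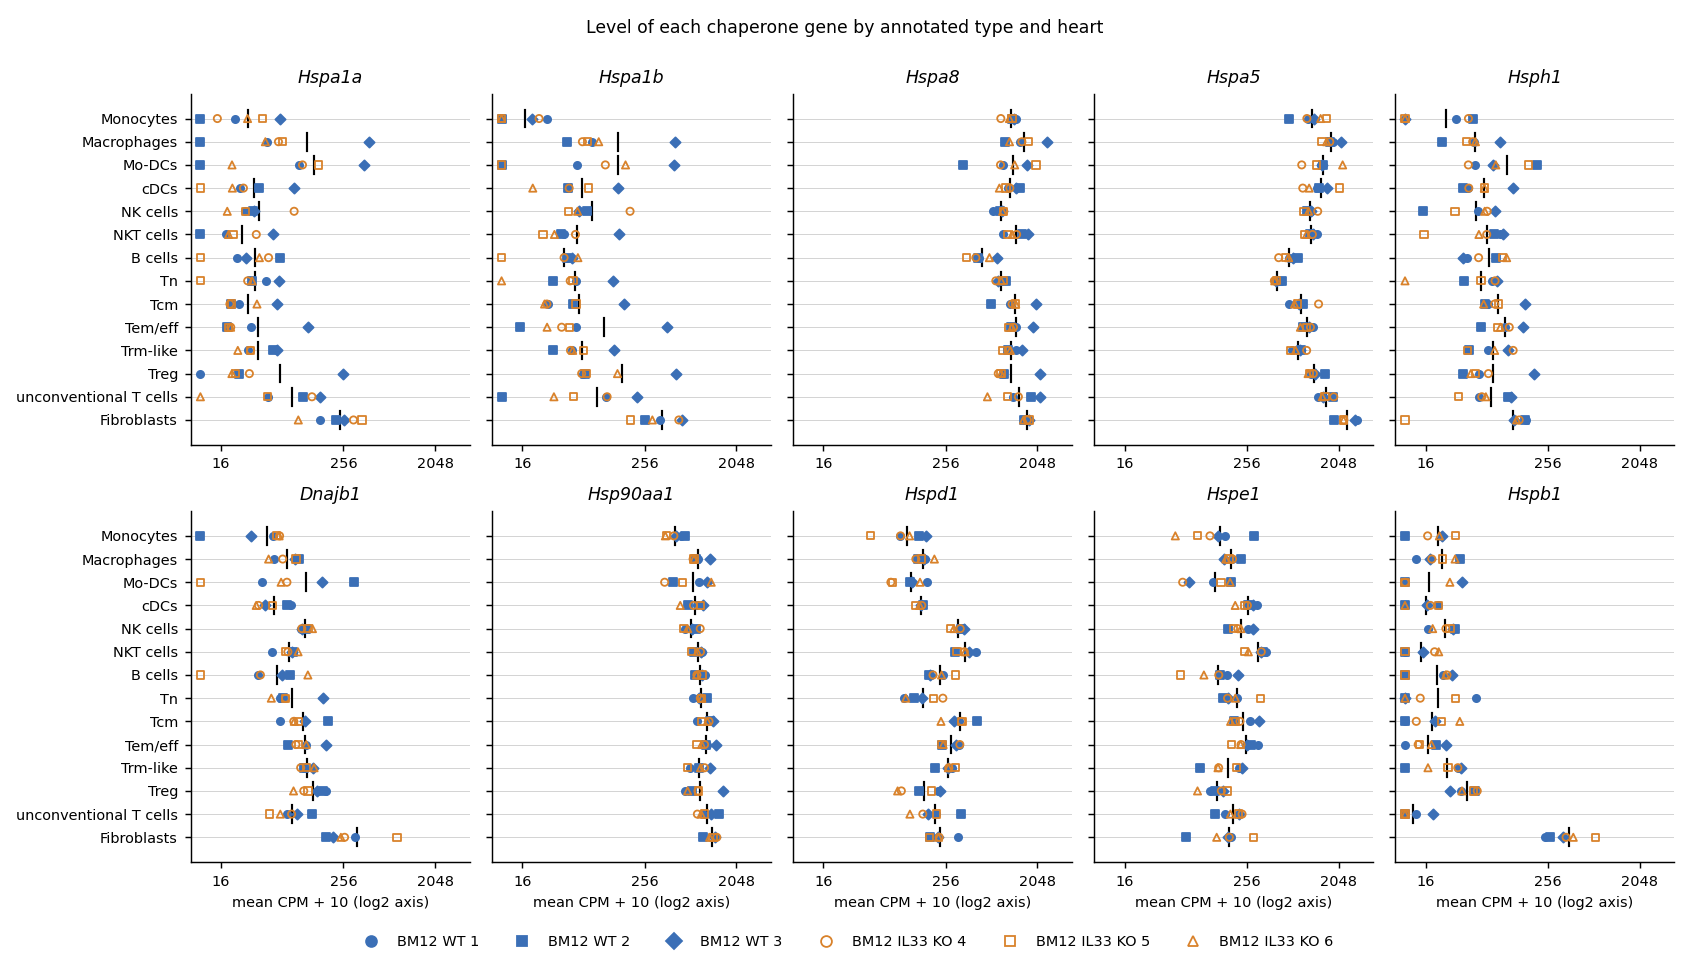
Level of each of the 10 members (mean CPM + 10, log2 axis) by annotated type, with 1 point per heart (filled for WT 1 to 3, open for IL33 KO 4 to 6) and a bar at the mean of the 6 hearts. Fibroblasts carry the highest mean of 8 members, and NKT cells that of Hspd1 and Hspe1 (387 and 321 CPM).

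The genes most like 4 members in their levels over types were drawn from 6304 genes with a mean of at least 20 CPM. Likeness was the Pearson r of log2(mean CPM + 10), which 1 type with a high level can carry without a like order of the others. Hspa1a and Hspb1, both highest in fibroblasts, had r = 0.74 over types but a rank correlation (Spearman's rho) of 0.30. For Hspa1a these were Vcam1 (r = 0.97 over 14 types), Pmp22, Lpl, Igf1 and Hbegf, and for Hspb1 Sdc2 (r = 0.97), Smoc2, Has1, Nfia and Col4a2. For Hspa5 they were Itpripl2 (r = 0.93), Azin1, Frmd4a, Casp4 and Rrbp1, and for Hspd1 Tfam (r = 0.94), Txndc11, Fkbp5, Sik2 and Scd2. Another measure set each type's mean to 0 and followed the 72 combinations of type and heart with at least 10 cells. Here the genes most like Hspa1a were Hes1 and Klf2 (r = 0.68 each), Jun (r = 0.66), Ccl3 and Chd7, of which Klf2 and Jun are on the list of immediate early genes used below. These r include WT 3, whose Hspa1a was far above the other hearts in several types, and are not given without it. On this measure the r of Hspa1a with Hspa1b was 0.67 with WT 3 and 0.09 without it. Those most like Hspa5 were Csrnp1 (r = 0.54), Anp32b, Pias2, Jund and Rpl12. For Hspd1 they were Nap1l1 (r = 0.59), Tpi1, Map4k1, Agtrap and Cpt1a, and for Hspb1 Nlrp3 (r = 0.50), Selenon, Evl, Ppie and Atp2a2.

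The comparison of WT with IL33 KO grafts asked whether graft IL-33 went with other chaperone levels in any type. No member was called in any type by limma on log2(mean CPM + 10), with adjusted p of 0.771 to 1.00 (Benjamini-Hochberg over all genes of a type) in the 136 of 140 member and type pairs that passed the filter on low counts. Over all genes 10 of 113178 pairs, 0.00884%, were called. Without adjustment 10 member pairs (7.35%) had a p of 0.05 or less, against 4.71% of all pairs. The member was higher in WT in 99 pairs (72.8%), against 50% of all pairs, with a median difference of 0.17 on the log2 scale. Without WT 3 it was higher in WT in 68 of 129 pairs (52.7%), against 48.3% of all pairs, with a median of 0.031. The groups did not overlap in 15 pairs (11.03%), 12 of them higher in WT, against 9.82% of all pairs.

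Averaged over types with equal weight, 9 of the 10 members were higher in WT, none past the adjusted threshold. Hspa1a was 0.45 higher in WT on the log2 scale (SE 0.31, 95% interval -0.20 to 1.09) and Hspa1b 0.51 higher (SE 0.34, interval -0.19 to 1.21), and without WT 3 the values were -0.12 and -0.14. Hsph1 was 0.32 higher (SE 0.20) and Dnajb1 0.24 (SE 0.16), the mitochondrial Hspd1 and Hspe1 0.19 (SE 0.12) and 0.20 (SE 0.13), Hspa8 0.15 (SE 0.10), Hsp90aa1 0.14 (SE 0.085) and Hspa5 0.058 (SE 0.070). Hspb1 was 0.16 lower in WT (log2 difference -0.16, SE 0.21). The limma adjusted p was 0.999 for each. Of all 14407 genes 0% were called, against 0 of the 10 members. The unadjusted p was 0.05 or less for 3.14% and 0 members, and 54.2% of genes and 9 members were higher in WT. The groups did not overlap for Hspa5, Hsp90aa1 and Hspd1, against 7.85% of all genes. The group difference in myeloid types minus that in lymphoid types was also called for 0 members and 0% of genes (limma adjusted p of 0.968 to 0.999 for the members, unadjusted p of 0.05 or less in 3.71% of genes).

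**Figure D2:**
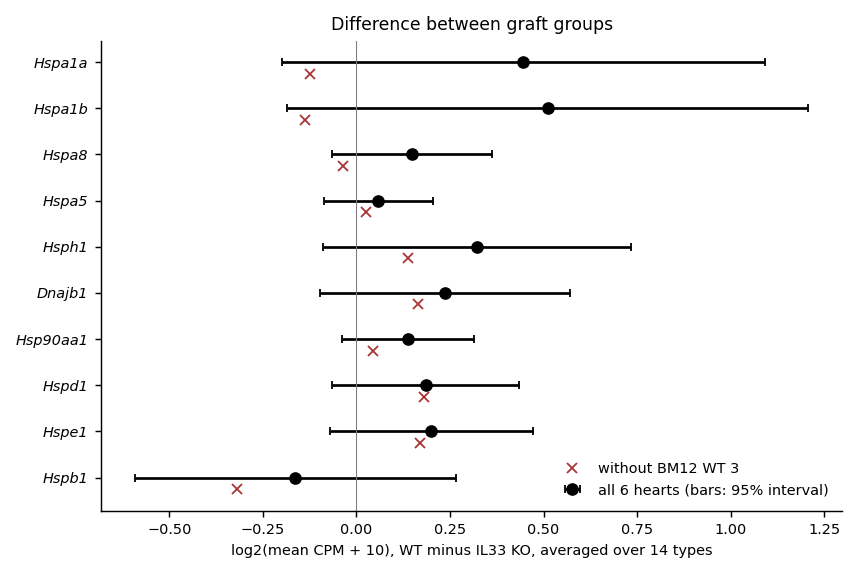
Difference WT minus IL33 KO of each member averaged over the 14 types (log2 of mean CPM + 10), with its 95% interval from all 6 hearts (circles and bars) and the value without WT 3 (crosses). Every interval includes 0, and Hspa1a, Hspa1b and Hspa8 lie above 0 with WT 3 and below 0 without it.

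A few pairs had an unadjusted p of 0.05 or less, none of which passed the adjustment. Hspb1 in fibroblasts was at 227, 259 and 352 CPM in WT 1, 2 and 3 and at 376, 739 and 444 CPM in IL33 KO 4, 5 and 6. All IL33 KO hearts were above all WT hearts, with a log2 difference of -0.84 (SE 0.33, unadjusted p = 0.017 by limma) and of -1.01 without WT 3. These hearts held 34, 6, 270, 31, 4 and 30 fibroblasts. Their 7 endothelial marker genes summed to 792 to 969 CPM in WT and 52.3 to 1373 CPM in IL33 KO hearts, with none of them at 0 in WT 3, and their part in the difference was not tested. Averaged over types the groups overlapped for Hspb1. A UMI was found in 3.70%, 4% and 3.06% of WT Tregs in hearts 1, 2 and 3, against 9.09%, 8% and 6.06% of IL33 KO Tregs in hearts 4, 5 and 6. These shares, from cells thinned to 1500 UMIs, did not overlap (exact permutation test, two-sided p = 0.1, the smallest that 3 against 3 allows). Without thinning they overlapped, with 7.41%, 4% and 5.10% against 10.9%, 8% and 6.06% (exact p = 0.2).

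Hspe1 was higher in WT in 3 types at this unadjusted level. In Tem/eff cells, effector and effector memory CD4+ T cells, its level was 322, 271 and 249 CPM in the WT hearts and 214, 171 and 212 CPM in the IL33 KO hearts, without overlap, a log2 difference of 0.47 (unadjusted p = 0.018 by limma). In monocytes, which number 5 to 82 per heart, it was 145, 289 and 123 CPM against 100.8, 73.9 and 40.6 CPM, also without overlap, a difference of 1.24 (SE 0.46, unadjusted p = 0.009). In NKT cells the difference was 0.40 (unadjusted p = 0.031). Hspd1, its partner, had no unadjusted p of 0.05 or less in any type.

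Hspa5 in monocytes was at 1013, 651 and 1177 CPM in WT and 989, 1552 and 1354 CPM in IL33 KO hearts, a log2 difference of -0.47 (SE 0.22, unadjusted p = 0.040 by limma), and the groups overlapped. Hsph1 in NKT cells was at 75.8, 64.6 and 83.0 CPM in WT and 53.8, 5.37 and 43.4 CPM in IL33 KO hearts, without overlap, a difference of 1.17 (unadjusted p = 0.008). Hsph1 in fibroblasts differed by 1.36 (unadjusted p = 0.043), with IL33 KO 5 at 0 in its 4 cells. Hspa8 in unconventional T cells, which number 2 to 27 per heart, differed by 0.76 (unadjusted p = 0.008). The remaining pairs, Hspa1a in Tem/eff and Hspa8 in Tregs, are given with the hearts below.

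The stress-inducible members varied between the hearts of a group, and WT 3, the heart with the most cells, stood apart. It was singled out after its values were seen, so the following is a description without a test. WT 3 was the highest of the 6 hearts in 11 of 14 types for Hspa1a and for Hspa1b, in 9 for Hspa8 and for Hsph1, in 6 for Hsp90aa1, in 5 for Hspb1, in 4 for Hspe1, in 3 for Hspd1, in 2 for Dnajb1 and in 1 for Hspa5. In each type it was the highest for 9.50% to 17.1% of all genes tested.

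In Tregs Hspa1b was at 53.1, 56.8 and 509.6 CPM in WT 1, 2 and 3 and at 51.5, 58.5 and 129 CPM in IL33 KO 4, 5 and 6. Hspa1a in the same cells was at 0, 14.0 and 244 CPM and at 20.4, 12.3 and 10.4 CPM, where 0 in WT 1 allows up to 38.8 CPM (3 UMIs). WT 3 was above each other heart for both genes, and the other 5 overlapped. Hspa8 in Tregs was at 921, 948 and 2155 CPM and at 833, 888 and 890.3 CPM, without overlap of the groups, a log2 difference of 0.50 (SE 0.23, unadjusted p = 0.040 by limma) that was 0.10 without WT 3. Hsp90aa1 in Tregs was at 635, 749 and 1518 CPM and at 849.6, 862 and 670.0 CPM, and Hsph1 at 43.8, 27.7 and 178 CPM and at 56.3, 39.5 and 34.5 CPM. Dnajb1 did not follow, with 161, 151 and 129.7 CPM in WT and 94.2, 105 and 72.6 CPM in IL33 KO hearts. There all 3 WT hearts were above all IL33 KO hearts, and 10.0% of all genes tested in Tregs had groups without overlap. The shares of Tregs with a Dnajb1 UMI overlapped when thinned (11.1%, 16% and 18.4% against 12.7%, 24% and 12.1%, exact permutation p = 0.8). Without thinning they did not (37.0%, 36% and 32.7% against 21.8%, 24% and 21.2%, exact permutation p = 0.1).

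In macrophages Hspa1a was at 35.4, 0 and 443 CPM in WT and 48.7, 54.0 and 33.6 CPM in IL33 KO hearts, and Hspa1b at 66.9, 34.1 and 495 CPM and at 52.5, 59.6 and 80.6 CPM. WT 2 holds 10 macrophages, so that its 0 allows up to 47.6 CPM. Without WT 3 the log2 difference of Hspa1a in macrophages was -1.36 (unadjusted p = 0.021, adjusted p = 0.749 by limma), whereas with it the value was 0.11. Hspa8 in macrophages was at 1369, 973 and 2548 CPM and at 1431, 1664 and 1079 CPM, again with WT 3 above each other heart.

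In Tem/eff cells Hspa1b was at 44.4, 5.20 and 413 CPM in WT and 29.0, 36.6 and 18.1 CPM in IL33 KO hearts. Hspa1a there was at 21.5, 8.48 and 104 CPM and at 9.89, 8.77 and 9.84 CPM, a log2 difference of 1.06 (SE 0.46, unadjusted p = 0.029 by limma) that was 0.31 without WT 3. In NKT cells Hspa1b was at 31.0, 28.4 and 133 CPM and at 43.5, 15.5 and 23.2 CPM. Tcm (central memory T cells) had WT 3 on top as well, with 18.6, 41.0 and 149 CPM in WT and 17.9, 44.1 and 16.5 CPM in IL33 KO hearts. In Mo-DCs (monocyte-derived dendritic cells) Hspa1b was at 45.7, 0 and 491 CPM and at 95.2, 0 and 156 CPM, where the zeros of WT 2 and IL33 KO 5 allow up to 301.4 and 195 CPM. Mo-DCs also held the 6 neutrophil marker genes at a summed 1651 to 8623 CPM in WT and 1478 to 70185 CPM in IL33 KO hearts, with 7493 CPM and none at 0 in WT 3, and their part in these values was not tested.

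WT 3 did not stand apart in every type, as fibroblasts and NK cells show. Fibroblasts held Hspa1a at 139.9, 205 and 249 CPM in WT and 312, 381 and 82.1 CPM in IL33 KO hearts, and Hspa1b at 353, 251 and 588 CPM and at 547, 176 and 296 CPM. In NK cells Hspa1b was at 47.6, 59.5 and 48.0 CPM in WT and 174, 35.3 and 46.0 CPM in IL33 KO hearts. The value of IL33 KO 4 was 72.7 CPM without its cell richest in these transcripts, which alone held 54 UMIs of the pair.

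**Figure D3:**
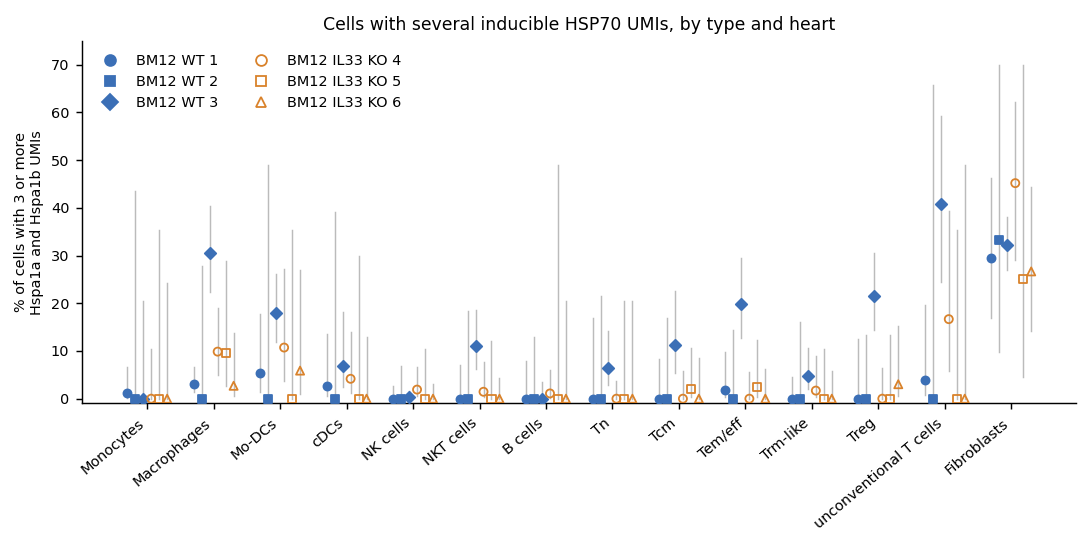
Share of cells with at least 3 UMIs of Hspa1a and Hspa1b together (percent of a heart's cells of that type), by type and heart, with 95% Wilson intervals as grey lines. WT 3 stands above the other hearts in Tregs (21.4%), macrophages (30.6%), Tem/eff cells (19.8%) and unconventional T cells (40.7%), and not in fibroblasts (32.2%, against 33.3% over the other 5 hearts).

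The high level came from a minority of cells in each of these types. In WT 3, 21 of 98 Tregs (21.4%, 95% Wilson interval 14.5% to 30.5%) held at least 3 UMIs of Hspa1a and Hspa1b, against 1 of 165 Tregs in the other 5 hearts. For macrophages the counts were 30 of 98 (30.6%, interval 22.4% to 40.3%) and 16 of 331, and for Tem/eff cells 17 of 86 and 2 of 241. Mo-DCs gave 20 of 111 and 6 of 93, and NKT cells 11 of 100 and 1 of 247. Unconventional T cells, few in each heart, gave 11 of 27 and 4 of 56. NK cells held such cells at 2 of 475 and 2 of 456, and fibroblasts at 87 of 270 (32.2%) and 35 of 105 (33.3%). Over all types 13.1% of the cells of WT 3 and 0.870% to 4.07% of those of the other hearts were of this kind. The median Treg held 2925.5 UMIs in WT 3 and 2377 to 3200 in the other hearts, and the median macrophage 6498.5 and 6243.5 to 7122, so the depth of WT 3 lay inside the range of the others.

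With every cell thinned to 1500 UMIs, an Hspa1a or Hspa1b UMI was found in 7.41%, 8% and 43.9% of Tregs in WT 1, 2 and 3 and in 9.09%, 12% and 15.2% in IL33 KO 4, 5 and 6. The groups overlapped (two-sided exact permutation test, p = 1), with a WT minus IL33 KO difference of 7.68 percentage points and of -4.38 without WT 3. Macrophages gave 11.5%, 20% and 27.6% against 11.3%, 19.0% and 10.8% (exact p = 0.2). Tem/eff cells gave 18.5%, 4.35% and 24.4% against 1.56%, 9.52% and 0% (exact p = 0.2), and fibroblasts 29.4%, 50% and 38.5% against 32.3%, 25% and 26.7% (exact p = 0.2). Over all cells the share was 10.4%, 10.9% and 20.05% against 8.01%, 8.10% and 8.41%. There the groups did not overlap, and the exact p of 0.1 is the smallest that this design allows. Without thinning they overlapped, with 23.1%, 19.1% and 33.5% against 20.3%, 20.4% and 19.1% (exact p = 0.4). The unthinned shares were 14.8%, 16% and 54.1% against 14.5%, 20% and 27.3% in Tregs (exact p = 0.8), and gave an exact p of 1 in macrophages, 0.8 in Tem/eff cells and 0.4 in fibroblasts. All-cell shares also move with the makeup of a heart.

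The HSP70-high cells of WT 3 also held more Hspa8, Hsph1, Dnajb1 and Hsp90aa1. Cells of the same heart and type with at least 3 UMIs of the pair were set beside those with 0, as a description. Among Tregs (21 and 45 cells) the means were 3508 and 1623 CPM of Hspa8, 386 and 118 CPM of Hsph1, 1997 and 999 CPM of Hsp90aa1 and 219 and 107 CPM of Dnajb1. Hspa5 was at 1452 and 1011 CPM. The mitochondrial members were not higher there, with 157 and 202 CPM of Hspd1 and 103 and 109 CPM of Hspe1. Median depth was 2970 and 2809 UMIs. Hspb1 was higher in the HSP70-high Tregs (25.4 and 8.95 CPM), fibroblasts (553 and 223 CPM), macrophages (14.5 and 0 CPM) and Mo-DCs of WT 3. It was at 0 and 23.1 CPM in Tem/eff cells and at 0 and 4.69 CPM in NKT cells. The zeros of the HSP70-high Tem/eff and NKT cells come from 17 and 11 cells, too few to show a lower level.

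Tem/eff cells (17 and 51) repeated this with 3409 and 1195 CPM of Hspa8, 365 and 67.5 CPM of Hsph1 and 2230.4 and 941 CPM of Hsp90aa1, at median depths of 7056 and 4771 UMIs. There the mitochondrial members were higher as well, with 518 and 254 CPM of Hspd1 and 479 and 164 CPM of Hspe1, and Hspa5 was at 823 and 1150.1 CPM. Macrophages (30 and 38) held 3461 and 2189.8 CPM of Hspa8, 132 and 38.5 CPM of Hsph1, 153 and 43.7 CPM of Dnajb1 and 1482 and 881 CPM of Hsp90aa1, with 163 and 104 CPM of Hspd1 and 160.0 and 140.2 CPM of Hspe1. The fewer such macrophages of the other 5 hearts (16 and 223) also held more of 3 of these genes, with 2426 and 1206 CPM of Hspa8, 68.4 and 31.8 CPM of Hsph1 and 1199.7 and 797 CPM of Hsp90aa1, but Dnajb1 was at 42.8 and 45.4 CPM.

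**Figure D4:**
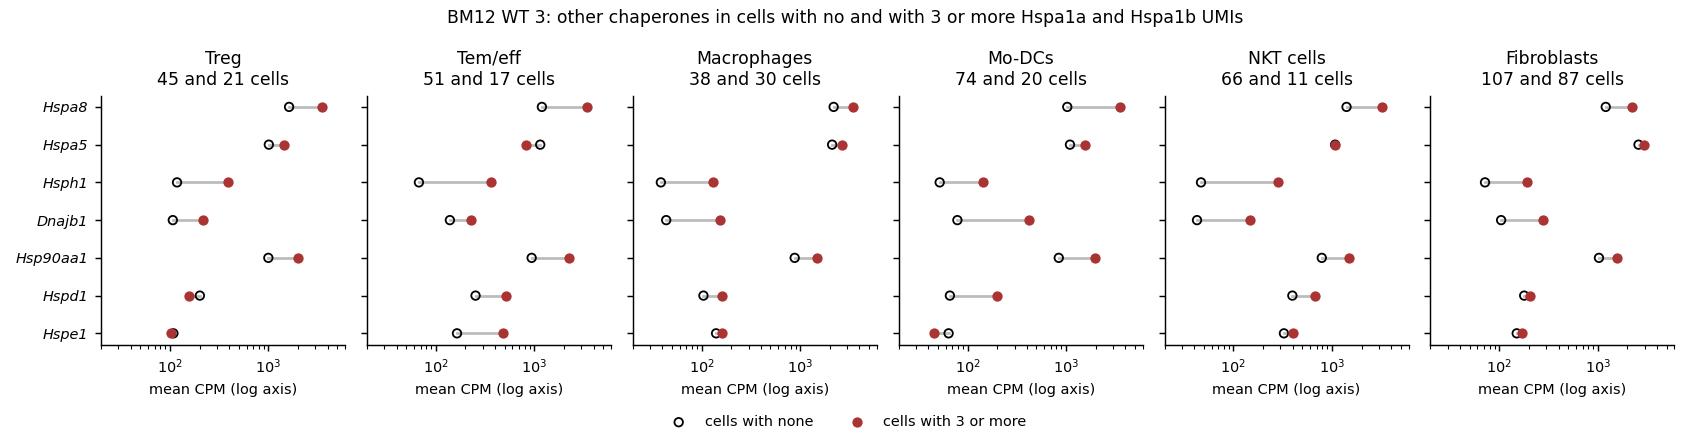
Mean level (CPM, log axis) of 7 other members in cells of WT 3 with 0 (open circles) and with at least 3 (filled circles) UMIs of Hspa1a and Hspa1b, in 6 types. Hspa8, Hsph1, Dnajb1 and Hsp90aa1 are higher in the filled circles of all 6 types (in Tregs 3508 and 1623 CPM for Hspa8), while Hspa5, Hspd1 and Hspe1 differ in direction between types.

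Over the 72 combinations of type and heart, with type means removed, Hspa1b correlated with Hspa1a (r = 0.67), Hspa8 (r = 0.66) and Hsph1 (r = 0.64). Over the 58 combinations without WT 3 these were 0.09, 0.15 and 0.57. Hspa8 with Hsp90aa1 went from 0.58 to 0.18, while Hspa5 with Hsp90aa1 was 0.50 and 0.53 and Hspd1 with Hspe1 0.27 and 0.28. All points share 1 library and 6 hearts. In single cells thinned to 1500 UMIs, Hspa1a was found in 250 and Hspa1b in 437 of 4441 cells. Both were found in 101, where the product of their shares within types gives 36.5. These shares pool the hearts of a type, so differences between hearts enter this comparison, and the cells are not replicates.

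Immediate early genes (19 genes such as Fos, Jun and Egr1), which cells transcribe within minutes of many stimuli, also had a high summed level in WT 3 in several types. Their summed level in macrophages was 21973 CPM in WT 3 and 8173 to 10129 CPM in the other 5 hearts, and 16 of the 19 were highest in WT 3. In Mo-DCs the sums were 24575 and 10428 to 15610 CPM (15 of 19 highest in WT 3), and in Tem/eff cells 11754 and 6290 to 7779 CPM (13 of 19). Tregs gave 18223 and 9327 to 15958 CPM (8 of 19). In NK cells and fibroblasts, where HSP70 was not set apart in WT 3, its sum lay inside the range of the others, with 11540 and 8738 to 12235 CPM and with 28289 and 23637 to 28642 CPM. In B cells, however, the sum was highest in WT 3 (12293 and 7407 to 10103 CPM) while Hspa1a and Hspa1b were not, at 18.3 and 39.1 CPM against up to 50.9 and 46.5 CPM in another heart. In naive T cells the sum of WT 3 lay inside the range of the others (8359 and 6944 to 8492 CPM). There 5 of 78 cells of WT 3 held at least 3 HSP70 UMIs, against 0 of 165 in the other hearts. In HSP70-high Tregs of WT 3, beside those with none, Jun, Fos, Junb and Nr4a1 were higher and Egr1 lower (252 and 647 CPM). In NKT cells Jun (325 and 351 CPM) and Junb (2823 and 3177 CPM) were lower, and Fos, Egr1 and Nr4a1 higher. WT 3 had the highest sum in 11 of 14 types. The part of these genes, and of whatever moves them, in the HSP70 values was not tested.

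None of the 19 was called between the groups. In Tregs 12 had an unadjusted p of 0.05 or less by limma, all higher in WT, with a list median of 0.85 on the log2 scale, against 5.1% and a median of -0.022 over all genes. Without WT 3 these were 8 of 19 and 0.63. In macrophages 7 had such a p (4.04% of all genes), with a median of 0.53, and without WT 3 1 of 19 did, with a median of 0.16.

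Tregs held 6 Treg marker genes at a summed 3264 CPM in WT 3, the lowest heart, and at up to 5519 CPM in another. In macrophages the 7 macrophage marker genes summed to 8226 CPM in WT 3, the highest heart, and to 4064 to 8078 CPM elsewhere. Unconventional T cells were counted as lymphoid here. They held the macrophage genes at 2030 to 3224 CPM in WT and 3169 to 4669 CPM in IL33 KO hearts. Their 6 T marker genes summed to 543 to 1439 and 403 to 1141 CPM. In Mo-DCs the 6 DC marker genes summed to 0 to 113 and 0 to 335 CPM. Some markers of other cell types were higher in WT 3. The 6 NK marker genes summed to 619 CPM in Tregs of WT 3 and to 103 to 204 CPM in those of the other hearts, with 2 of the 6 highest in WT 3 and none at 0. The 7 macrophage marker genes summed to 257 and 124 to 220.1 CPM there, with 1 of 7 highest in WT 3 and none at 0. In macrophages of WT 3 the 6 Treg marker genes summed to 142 CPM, and to 35.3 to 82.6 CPM in the other hearts. Of these genes 5 of 6 were highest in WT 3 and none was at 0. The 6 T marker genes, however, summed to 30.3 CPM there, inside the 22.4 to 60.3 CPM of the other hearts. Of the T genes 0 of 6 were highest in WT 3. The NK, monocyte and neutrophil sums in macrophages were not highest in WT 3 either. The sum of the 6 B marker genes was, at 158 CPM against 62.5 to 125 CPM. The part of these transcripts in the HSP70 values was not tested.

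The related chaperones were read from lists of named genes in the average over types, where the members' own median was 0.19 and that of all genes 0.012 on the log2 scale. Of all genes, 54.2% were higher in WT and 3.14% had an unadjusted p of 0.05 or less. No listed gene was called. Among 27 other cytosolic chaperones and heat shock factors, such as Hsp90ab1, Bag3 and Hsf1, 15 were higher in WT, 1 had an unadjusted p of 0.05 or less by limma and the median was 0.014. The 8 TRiC chaperonin subunits gave 7, 0 and 0.034. The 23 ER chaperones and unfolded protein response genes, such as Hsp90b1 and Xbp1, gave 18, 2 and 0.064, beside 0.058 for Hspa5. The 9 mitochondrial chaperones and proteases gave 3, 0 and -0.011, and the 12 cell cycle genes 8, 0 and 0.019. In Tregs 5 of 26 cytosolic ones had an unadjusted p of 0.05 or less, 2 of them higher in WT, against 5.1% of all genes, and without WT 3 these were 2 of 23.

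The cells annotated as fibroblasts were not uniform in their markers. Of 375, 70 held a UMI of at least 2 of 7 endothelial marker genes, 91 of 1 of them and 214 of none. The 6 fibroblast marker genes summed to 6681 CPM in the first set (2893 in WT 3 to 12939 in IL33 KO 6) and 28033 CPM in the last, as means over hearts, so the annotation takes in cells with endothelial marker RNA and less fibroblast marker RNA. WT 3 gave 50 of the 70, and IL33 KO 5 gave 0. Levels are means over the hearts with at least 3 cells in a set (4 with endothelial markers and 5 without), and the 4 hearts with both were compared within heart.

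Hspa1b was at 1031 CPM in cells with endothelial markers and 271 CPM in cells without, higher in 4 of 4 hearts. Hspa8 (2326 and 1426 CPM), Hsph1 (281 and 98.04 CPM) and Hspb1 (499.9 and 345 CPM) were also higher in 4 of 4, Hsp90aa1 (1454 and 1093 CPM) in 3 and Hspa1a (410.3 and 98.4 CPM) in 2. Hspa5 (1437 and 2689.9 CPM) and Dnajb1 (145 and 312 CPM) were higher in 0 of 4. For Dnajb1, however, the values of WT 3 were nearly equal (202.1 and 202.9 CPM). Its low values with endothelial markers came from 5 cells of WT 1 (61.2 CPM) and 3 of IL33 KO 6 (30.5 CPM). Hspa5, a chaperone of secreted proteins, was thus higher in the cells without endothelial marker RNA, and Hspa1b in those with it. The marker sets were cut from these cells' own expression, so this is a description without a test.

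**Figure D5:**
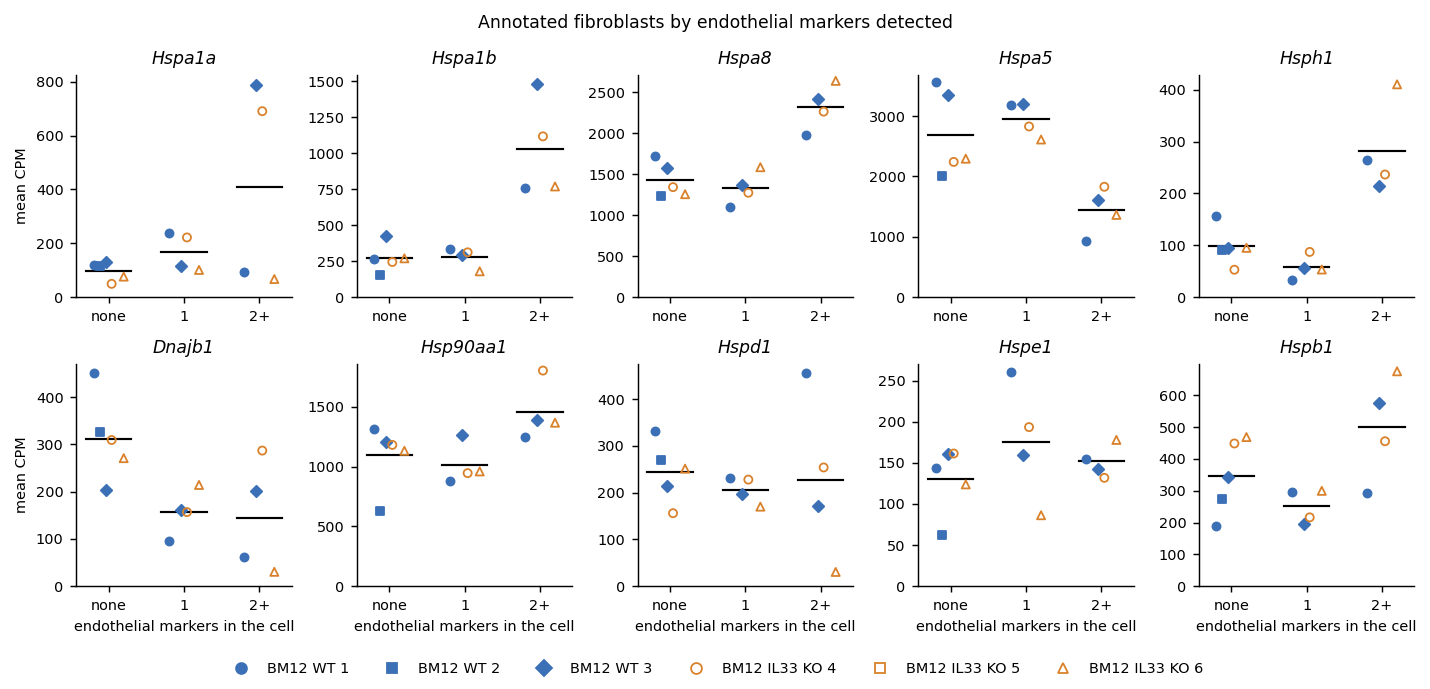
Level of each member (mean CPM) in cells annotated as fibroblasts that hold UMIs of no, 1 or at least 2 endothelial marker genes, with 1 point per heart with at least 3 such cells and a bar at their mean. Hspa1b is higher with 2 or more markers (means 1031 and 271 CPM) and Hspa5 lower (1437 and 2689.9 CPM).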

How the data were processed

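Donor hearts had been digested with collagenase IV and DNase at 37 °C and enriched on a density gradient, and the library read with Cell Ranger (mm10 reference) and Partek Flow 10.0.23.0425. Cells had been filtered on UMI number, gene number and mitochondrial reads. The authors deposited log2(CPM + 1) values with an annotation of type, hashtag and graft group. The file held 1500 to 14977 UMIs per cell. The log was undone, and whole UMIs were recovered (99.9% of low values within 0.05 of a whole number). No cell was removed here. Scrublet (scanpy 1.11.5) called 2 doublets, and removing its top 6% (266 cells) was an alternative. Cell barcodes repeated 0 times. The file's symbols include 22 that hold a mean of several entries, 0 of them members.

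For each type, mean CPM per heart was fitted as log2(CPM + 10) with limma 3.58.1 (R 4.3.3; lmFit, eBayes with trend) on all genes with at least 10 UMIs and a UMI in at least 3 hearts, with Benjamini-Hochberg adjustment and a threshold of 0.05. Differences are WT minus IL33 KO on that scale, which understates the change of low genes. The fit was also run on simulated hearts. Their spread was smaller than that of Hspa1a and Hspa1b between these hearts, so the run does not show what the fit could find for such genes. Shares of cells were taken after thinning to 1500 UMIs and compared by a two-sided exact permutation test over hearts (scipy 1.17.1). The study's own test was run in Partek Flow with a replicate unit that is not given in the sources used here. All members, in all types and hearts, were to be named, with the 5 genes most like Hspa1a, Hspa5, Hspd1 and Hspb1. The members, lists and markers were chosen with earlier results of these data known. Promoters are from RefSeq (GRCm38.p6), gene positions from GENCODE. Hsp90aa1 and Hspa8 have no promoter printed.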

Additional observations from a re-analysis of the deposited data

How the results depend on the processing

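Of 495 values recomputed under alternatives (another pseudocount, filter, doublet removal, weighting, limma-voom, thinning depth or a heart left out), 476 were classed as the same. For fitted differences this required only the same direction and side of the adjusted threshold, and for shares only the same direction. Size was compared only for counts, levels and correlations, so a fitted difference classed as the same could still shrink or grow. Member and type pairs with an unadjusted p of 0.05 or less numbered 10, 6 with a pseudocount of 1 CPM, 16 with limma-voom on summed UMIs, and 5 to 20 with a heart left out. In the main fit these were 7.35% of member pairs, against 4.71% of all pairs. Without WT 3 they were 9 of 129, against 5.69% of all pairs. Shares of all pairs under the other alternatives are not given here, so the counts under those alternatives have no background beside them. Pairs with an adjusted p of 0.05 or less numbered 0 in the main fit, against 0.00884% of all pairs, and 0 to 1 with a heart left out. Without WT 1 that was Hspa8 in unconventional T cells (log2 difference 1.00, adjusted p = 0.043 by limma), and without WT 2 Hspa1b in Tem/eff cells (2.03, adjusted p = 0.035). Without WT 3 the differences averaged over types turned to -0.12 for Hspa1a, -0.14 for Hspa1b and -0.035 for Hspa8 (-0.12 to 0.78, -0.14 to 1.03 and -0.035 to 0.26 with any heart left out), and the difference of Treg shares with an HSP70 UMI to -4.38 percentage points (-4.38 to 13.9 with any heart left out). Hspb1 turned to 0.065 with all cells of a heart averaged together, and the macrophage share difference to -1.60 points when thinned to 3000 UMIs (exact permutation p = 0.9). Hspa8 in fibroblasts was 1688 CPM from summed UMIs. With type means removed, over the 72 combinations, Spearman's rho was 0.44 for Hspa1a with Hspa1b and 0.51 for Hspa1b with Hspa8. Over the 14 types it was 0.75 and 0.33. Leaving out the top cell of NK cells in IL33 KO 4 (72.7 CPM of Hspa1b) was chosen after seeing the data. No paired analysis was possible because the labels number the hearts 1 to 6, so the groups share no number. Depth limits hearts with few cells of a type, WT 2 and IL33 KO 5 above all.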
